A study of Mus musculus with 10 samples.

Results

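The 8 genes described here are the myosin light chain genes Myl1, Myl2, Myl3, Myl4, Myl6, Myl6b and Mylpf together with Mylk2, the gene of the kinase that phosphorylates regulatory light chain in skeletal muscle. They were chosen by name, and all 8 were found among the 25700 genes listed for each mouse. RNA came from the tibialis anterior (TA), a predominantly fast muscle of the lower leg, of 12-week-old male C57BL/6 mice, 6 days after cardiotoxin (CTX), a snake venom toxin that kills muscle fibers and starts regeneration, was injected into it. The 5 controls, named Pax7Cre, were littermates that carry Cre recombinase under the Pax7 promoter and are labelled wild type. The 5 miR-501KO mice carry the same Cre and a floxed miR-501 allele on the X chromosome, so the deletion reaches cells of the Pax7 lineage, the myogenic progenitors and the fibers that they form, while macrophages, vessels and connective tissue in the same muscle are outside that lineage. Their label gives the genotype as miR-501 -/-. No other muscle, no uninjured muscle and no other day was analysed, so the light chains are compared over 10 TA muscles and 2 genotypes.

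Each myosin head binds an essential and a regulatory light chain along the lever arm of the heavy chain. Vertebrates make different isoforms of both in fast fibers, in slow fibers and heart, in embryonic muscle and in non-muscle cells. Newly formed fibers of a regenerating muscle pass through an embryonic program before adult isoforms take over. Calcium and calmodulin activate skeletal myosin light chain kinase, which phosphorylates the regulatory chain and potentiates fast twitch force.

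Mature miR-501-3p, an RNA that the deletion removes, is shown with bases 2 to 8, the seed, in capitals, for comparison with light chain transcripts. It lies on the minus strand at chrX:7241270-7241291 (RefSeq, GRCm38.p6) inside the Mir501 hairpin, which is not a row of the count files, so the deletion could not be checked from these counts.
miR-501-3p: aAUGCACCcgggcaaggauuug
The DNA complement of this seed, GGTGCAT, was searched in the annotated 3′ untranslated regions of GENCODE M21. None of the 8 genes held it, and 7.07% of 21173 genes with such a region did. The longest annotated region per gene ran from 103 bases in Mylpf to 1166 bases in Myl6, and other modes of pairing were not searched.

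RefSeq promoter windows were found for 7 of the 8 genes, and none for Mylk2. Those of the fast pair, whose transcripts moved together across mice, and of the slow essential chain Myl3 are shown 5′ to 3′ as the longest stretch before the annotated start that no annotated exon covers. Capitals mark matches on either strand to an E box (CANNTG), to a TATA box (TATAAA) or to a CArG box. The builds are GRCm38.p6, with Mylpf at chr7:127211358-127211607 on the plus strand, Myl1 at chr1:66945144-66945290 on the minus strand and Myl3 at chr9:110763428-110763645 on the plus strand. The annotated starts meant here are those of the RefSeq windows. The Mylpf, Myl1 and Myl3 stretches each lie inside the GENCODE M21 limits of their gene, downstream of its outermost start. Only 1 window was found for Myl1, whose forms have separate promoters.
Mylpf: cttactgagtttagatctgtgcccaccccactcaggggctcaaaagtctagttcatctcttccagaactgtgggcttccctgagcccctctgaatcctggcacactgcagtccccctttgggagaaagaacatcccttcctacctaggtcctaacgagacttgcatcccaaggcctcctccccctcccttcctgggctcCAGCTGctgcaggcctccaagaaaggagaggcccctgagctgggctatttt
Myl1: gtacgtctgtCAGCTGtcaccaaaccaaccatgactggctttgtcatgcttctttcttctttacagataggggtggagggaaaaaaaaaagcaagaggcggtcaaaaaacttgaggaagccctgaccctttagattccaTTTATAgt
Myl3: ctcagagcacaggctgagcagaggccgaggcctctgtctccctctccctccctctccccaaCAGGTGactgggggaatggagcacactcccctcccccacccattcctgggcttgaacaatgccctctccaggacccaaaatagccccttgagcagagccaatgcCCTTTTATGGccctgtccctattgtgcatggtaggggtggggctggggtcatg
Mylpf and Myl1 each held the E box letters CAGCTG, beginning at positions -51 and -224 relative to the annotated start, while the E box of Myl3 read CAGGTG and began at position -189. Of the 2 windows of slow Myl2, 1 also held CAGCTG and a TATA box match, but both windows end upstream of the GENCODE M21 start of Myl2 and do not reach it. Of 32851 RefSeq promoter windows of 300 bases, searched over the 250 bases before the start, 66.2% held an E box, 13.0% the letters CAGCTG, 12.4% a TATA box and 1.47% a CArG box. The Myl1 stretch held TATAAA on the opposite strand and the Myl3 stretch a CArG box. A CArG box also lay at position -50 in 1 of the 2 windows of Myl6, a window that an annotated Myl6 exon covers. No match to the MEF2 site was found in the windows of the 7 genes, and 2.92% of all windows held one.

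Sequencing gave 18609222 to 24753258 counted reads per mouse, and between 1.43% and 2.88% of them fell on the 8 genes. Counts were scaled to a library total of 1000000 (CPM) with TMM factors, which correct for differences in library composition. The genotypes were set against each other by edgeR's quasi-likelihood test over all 14410 genes that passed a filter on low counts, as the log2 fold change of miR-501KO over Pax7Cre, with p-values adjusted by Benjamini-Hochberg. The light chains were carried by a muscle that also held other cells: summed over marker lists, macrophage genes (8 of 8 detected) were at 4938 to 6990 CPM in Pax7Cre and 5177 to 6134 CPM in miR-501KO mice, and fibroblast genes (5 of 5) at 13605 to 18618 and 14559 to 17665 CPM. In such a mixture, fewer fibers and less RNA per fiber cannot be told apart. Among the 10 libraries, 3 stood apart in fast fiber genes (10 of 10 detected): their summed level was 64954 CPM in Pax7Cre mouse 2 and 49637 CPM in miR-501KO mouse 4, the highest of their genotypes, and 23695 CPM in Pax7Cre mouse 4, the lowest of all. Mitochondrial genes also took their highest share of the counts in Pax7Cre mouse 2 and miR-501KO mouse 4, at 13.98% and 12.73%, and their lowest in Pax7Cre mouse 4, at 6.59%.

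No difference in a light chain gene between genotypes was larger than the spread between mice. Of the 8 genes, all passed the filter, 5 had a log2 fold change above 0 and 3 below 0, none had an adjusted p under 0.05 and none an unadjusted p under 0.05. With the quasi-likelihood test 0 of 14410 genes were called (0%) and 151 (1.05%) had an unadjusted p under 0.05. A likelihood ratio test in edgeR called 11 genes higher and 8 lower, none of the light chain genes among them. It was run with a spread read from the trend over all genes, without each gene's own spread between mice. The SE of Myl3 was 0.21 in that test and 0.72 in the quasi-likelihood test. The median log2 fold change was 0.02 over the 8 genes and -0.004 over all genes tested. The CPM of the genotypes overlapped in each of the 8 genes, and 0.139% of all genes tested had genotypes that did not overlap.

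**Figure D1:**
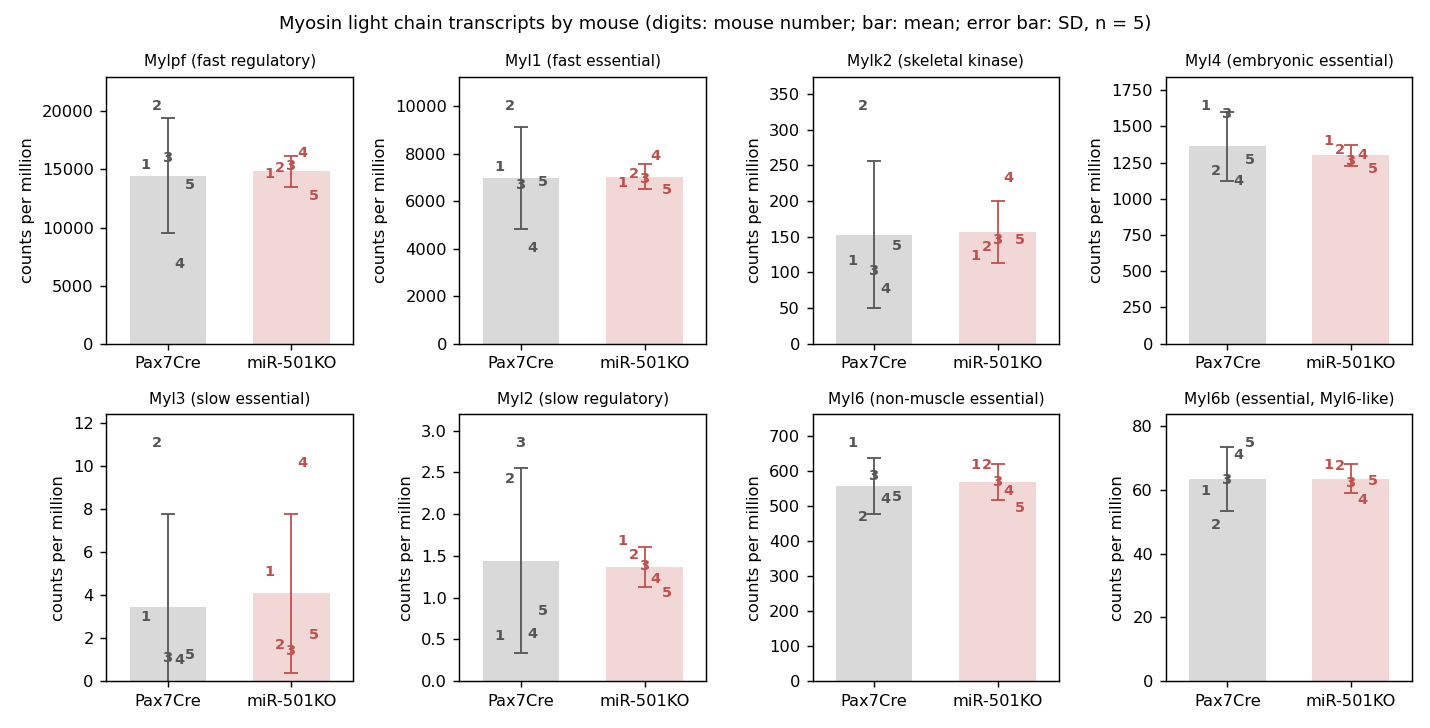
CPM (y axes, from 0, a scale of its own for each gene) of the 8 genes in each Pax7Cre (grey) and miR-501KO (red) mouse, with digits for the mouse number, bars for the mean and error bars for the SD of 5 mice, cut at 0 where the SD exceeds the mean. The genotype means lie close together for every gene, while Pax7Cre mouse 2 is high in Mylpf, Myl1, Mylk2 and Myl3, and miR-501KO mouse 4 is the highest of its genotype in the same 4 genes.

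Mylpf encodes the fast regulatory light chain and was the most abundant of the group (Ensembl ENSMUSG00000030672, chr7:127208890-127214298, plus strand). It was at 15350, 20499, 15980, 6832 and 13621 CPM in Pax7Cre mice 1 to 5 and at 14651, 15093, 15331, 16409 and 12712 CPM in miR-501KO mice 1 to 5. Pax7Cre mouse 2 was the highest and Pax7Cre mouse 4 the lowest of all 10 mice, and the miR-501KO values lay between them. The means were 14457 ± 4961 and 14839 ± 1354 CPM (SD, n = 5 each), and the log2 fold change was 0.04 (SE 0.25, edgeR adjusted p = 1.00), with a 95% interval from 0.708-fold to 1.49-fold.

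Myl1 encodes the fast essential light chain, whose long and short forms are made from separate promoters of the gene (ENSMUSG00000061816, chr1:66924295-66945404, minus strand) and are counted here together. It was at 7420, 10021, 6668, 4012 and 6810 CPM in Pax7Cre mice 1 to 5 and at 6755, 7139, 6913, 7892 and 6460 CPM in miR-501KO mice 1 to 5. The same mice were at the ends of the range as for Mylpf, with a 2.50-fold distance between Pax7Cre mice 2 and 4. The log2 fold change between genotypes was 0.01 (SE 0.21, edgeR adjusted p = 1.00), with a 95% interval from 0.737-fold to 1.37-fold.

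Mylk2 encodes the skeletal muscle light chain kinase (ENSMUSG00000027470, chr2:152911352-152923068, plus strand) and varied more than either fast chain. It was at 116, 334, 101, 76.7 and 136 CPM in Pax7Cre mice 1 to 5 and at 123, 135, 146, 232 and 146 CPM in miR-501KO mice 1 to 5. In each genotype 1 mouse was far above the other 4, Pax7Cre mouse 2 and miR-501KO mouse 4. With all mice the log2 fold change was 0.03 (SE 0.34, edgeR adjusted p = 1.00). Without Pax7Cre mouse 2 it was 0.53 (SE 0.19, unadjusted p = 0.0147, adjusted p = 1.00), in a fit in which 1.84% of 14510 genes rose at that unadjusted threshold of 0.05. Without Pax7Cre mouse 4 it was -0.14, and without miR-501KO mouse 4 it was -0.15.

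Myl4 encodes the embryonic and atrial essential light chain, which marks newly formed fibers (ENSMUSG00000061086, chr11:104550663-104595753, plus strand). It was at 1642, 1192, 1586, 1123 and 1265 CPM in Pax7Cre mice 1 to 5 and at 1395, 1336, 1262, 1301 and 1204 CPM in miR-501KO mice 1 to 5. The highest mouse was 1.46-fold above the lowest, and Pax7Cre mouse 2, highest in the fast chains, was here below all but Pax7Cre mouse 4. The log2 fold change was -0.07 (SE 0.13, edgeR adjusted p = 1.00), and its 95% interval from 0.788-fold to 1.16-fold was among the narrowest of the 8 genes. Without Pax7Cre mouse 1 the log2 fold change was 0.01. Myh3, the embryonic myosin heavy chain, was at 1119 ± 267 CPM in Pax7Cre and 1140 ± 129 CPM in miR-501KO mice (SD, n = 5 each).

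The slow isoforms Myl3 and Myl2 were near the floor of these libraries. Myl3, the slow skeletal and ventricular essential light chain (ENSMUSG00000059741, chr9:110741861-110769798, plus strand), had 20 to 210 reads per mouse. It was at 2.96, 11.1, 1.06, 0.963 and 1.22 CPM in Pax7Cre mice 1 to 5 and at 5.08, 1.65, 1.37, 10.2 and 2.12 CPM in miR-501KO mice 1 to 5. Pax7Cre mouse 2 and miR-501KO mouse 4 again stood above the rest of their genotypes, and the distance exceeded counting error: before scaling, the exact 95% binomial interval was 8.52 to 11.2 CPM in Pax7Cre mouse 2 and 0.656 to 1.66 in Pax7Cre mouse 3. The log2 fold change between genotypes was 0.24 (SE 0.72, edgeR adjusted p = 1.00) with a 95% interval from 0.403-fold to 3.47-fold. It was 1.36 without Pax7Cre mouse 2 (SE 0.58, unadjusted p = 0.0348, adjusted p = 1.00), -0.01 without Pax7Cre mouse 4 and -0.40 without miR-501KO mouse 4.

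Myl3 and the slow myosin heavy chain were at opposite ends of their ranges in the same mice. Myh7, the slow heavy chain, was at 2.87, 1.85, 2.96, 3.69 and 2.94 CPM in Pax7Cre mice 1 to 5 and at 4.16, 2.64, 4.08, 1.85 and 3.22 CPM in miR-501KO mice 1 to 5, and it was lowest in Pax7Cre mouse 2 and miR-501KO mouse 4, where Myl3 was highest. Over the 10 mice the correlation of log2 CPM was r = -0.64 (Spearman's coefficient -0.47, permutation p = 0.0466 and 0.177, adjusted over 7 relations p = 0.109 and 0.582), and without these 2 mice r was 0.24, so the relation rests on them. Summed over 10 slow fiber genes other than light chains (10 of 10 detected), Myh7 among them, the level did not follow Myh7. It was 2584 CPM in Pax7Cre mouse 2 and 2701 CPM in miR-501KO mouse 4. The Pax7Cre mice ranged from 2346 to 2918 CPM and the miR-501KO mice from 2365 to 2932 CPM. Exons of Pth1r, on the other strand, share 95 bases with Myl3, and the strand setting of the counting is not given in the sources used here. Pth1r was at 6.33 CPM in Pax7Cre mouse 2 and 5.72 CPM in miR-501KO mouse 4, within its range in the other mice for the first and below it for the second.

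Myl2, the slow skeletal and ventricular regulatory light chain (ENSMUSG00000013936, chr5:122100951-122113472, plus strand), had 12 to 54 reads per mouse. It was at 0.537, 2.43, 2.85, 0.562 and 0.833 CPM in Pax7Cre mice 1 to 5 and at 1.68, 1.51, 1.37, 1.22 and 1.06 CPM in miR-501KO mice 1 to 5. Here Pax7Cre mice 2 and 3 were the highest, and miR-501KO mouse 4 was not high. Counting error alone was wide at this depth, with an exact 95% binomial interval of 0.281 to 0.950 CPM in Pax7Cre mouse 1 and of 2.18 to 3.79 in Pax7Cre mouse 3, before scaling. The log2 fold change was -0.04 (SE 0.44, edgeR adjusted p = 1.00), with a 95% interval from 0.506-fold to 1.87-fold, so changes within that range were not excluded. Ccdc63, which shares 60 exonic bases with Myl2 on the other strand, had 1 to 4 reads per mouse.

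Myl6 encodes the essential light chain of non-muscle and smooth muscle myosin, and Myl6b a related essential chain. The genes are neighbours on the minus strand (ENSMUSG00000090841, chr10:128490860-128494145, and ENSMUSG00000039824, chr10:128494157-128498685), with no shared exonic base. Myl6 was at 681, 469, 588, 521 and 528 CPM in Pax7Cre mice 1 to 5 and at 619, 619, 570, 544 and 496 CPM in miR-501KO mice 1 to 5. Myl6b was at 59.7, 48.9, 63.1, 71.0 and 74.7 CPM in Pax7Cre mice 1 to 5 and at 67.9, 67.5, 62.3, 56.8 and 62.8 CPM in miR-501KO mice 1 to 5. Both were lowest in Pax7Cre mouse 2, the mouse highest in the fast chains, and Pax7Cre mouse 4, lowest in the fast chains, was exceeded in Myl6b by Pax7Cre mouse 5 alone. Macrophage and fibroblast genes were lowest in the same Pax7Cre mouse 2, at 4938 and 13605 CPM, as were smooth muscle genes (6 of 6 detected), at 1132 CPM against a highest value of 1539 CPM in miR-501KO mouse 1. Endothelial genes (5 of 5) were at 687 CPM in Pax7Cre mouse 2, the highest of the Pax7Cre mice. Their part in the level of Myl6 was not tested. The log2 fold changes between genotypes were 0.03 (SE 0.11) for Myl6 and -0.0003 (SE 0.11) for Myl6b, with an edgeR adjusted p of 1.00 for both.

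**Figure D2:**
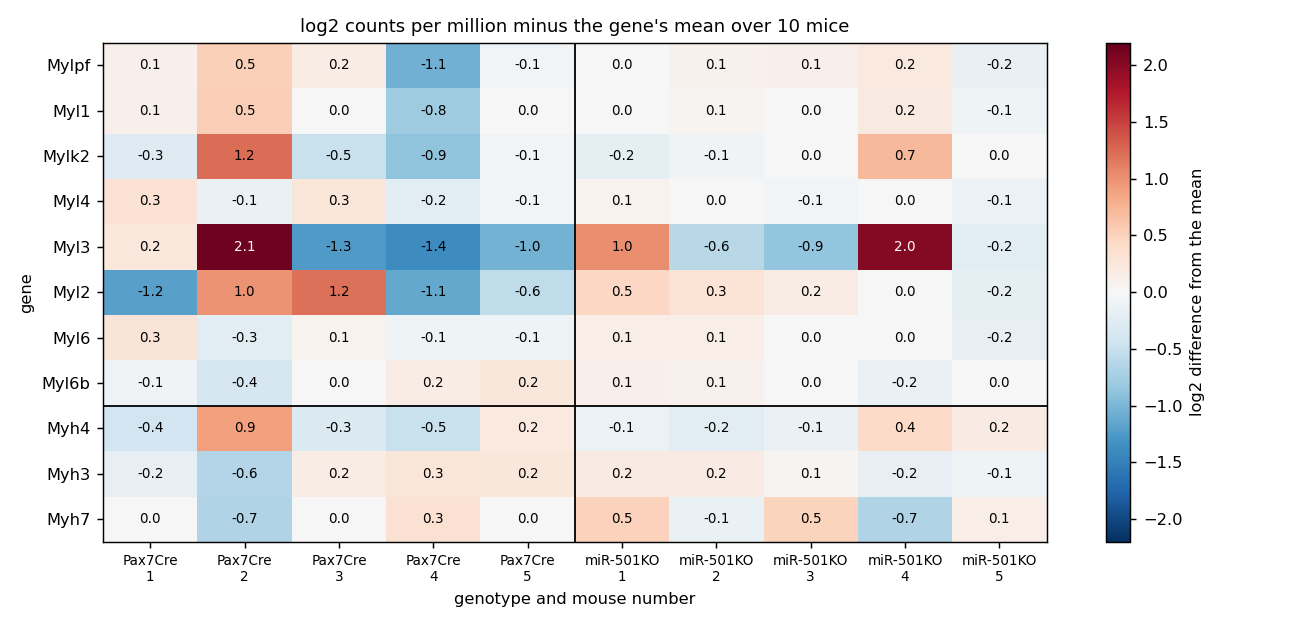
Log2 CPM of each gene in each mouse minus its mean over the 10 mice, from blue (lower) to red (higher), with the 8 genes above the line and the heavy chains Myh4 (fast), Myh3 (embryonic) and Myh7 (slow) below it. Pax7Cre mouse 2 and miR-501KO mouse 4 are red for Mylk2, Myl3 and Myh4 and blue for Myh7, and Pax7Cre mouse 4 is blue for Mylpf, Myl1, Mylk2 and Myl3.

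The spread between mice was larger in the controls. All 8 genes had the larger SD of log2 CPM in Pax7Cre mice, from 0.20 for Myl6 to 1.44 for Myl3, against 0.08 for Myl4 to 1.19 for Myl3 in miR-501KO mice. The same held for 79.2% of the 14410 genes tested, and the 8 genes were read from the same libraries, so the light chains shared the larger spread of the controls with most genes.

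**Figure D3:**
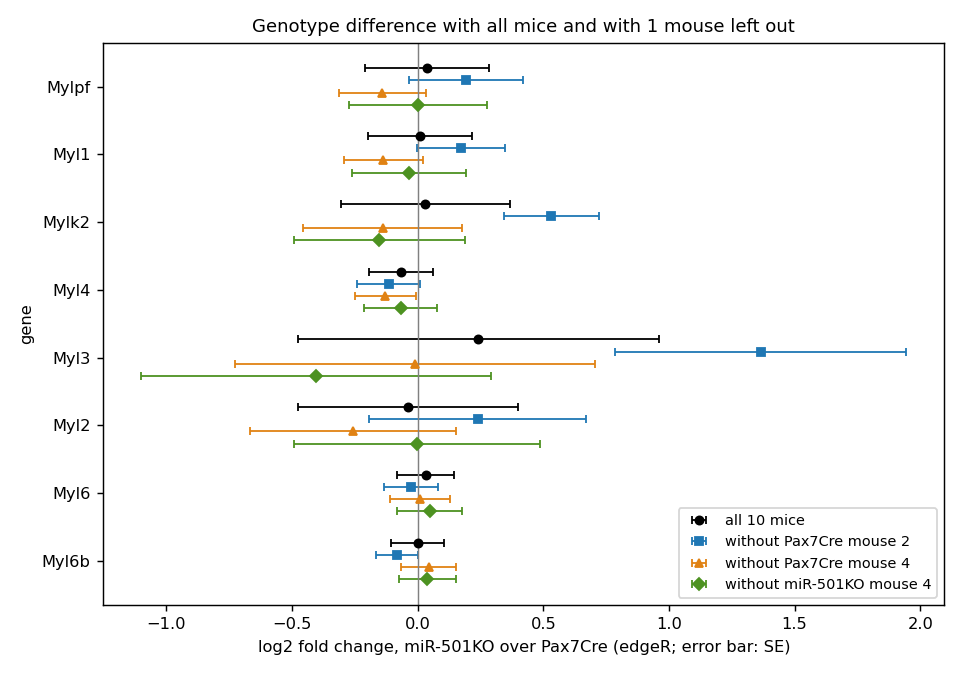
Log2 fold change of miR-501KO over Pax7Cre (x axis, points, with SE as error bars, edgeR) for the 8 genes with all 10 mice and with Pax7Cre mouse 2, Pax7Cre mouse 4 or miR-501KO mouse 4 left out. Myl4, Myl6 and Myl6b stay near 0 in each fit, whereas Mylk2 and Myl3 move to 0.53 and 1.36 without Pax7Cre mouse 2.

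To compare levels between genes, counts were divided by the merged length of all annotated exons and scaled to a sum of 1000000 over all genes (TPM). The median over 10 mice was 36737 TPM for Mylpf, 8883 for Myl1, 743 for Myl4, 482 for Myl6, 122 for Mylk2, 90.9 for Myl6b, 2.44 for Myl3 and 1.68 for Myl2. Mylpf exceeded Myl1, Myl1 exceeded Myl4 and Myl4 exceeded Myl6 in 10 of 10 mice each, although the ranges of Myl4 and Myl6 over mice touched. Mylk2 exceeded Myl6b in 9 of 10 mice, and with the length of the longest or of the principal transcript their order turned. Myl3 exceeded Myl2 in 8 of 10 mice, with ranges that overlapped.

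**Figure D4:**
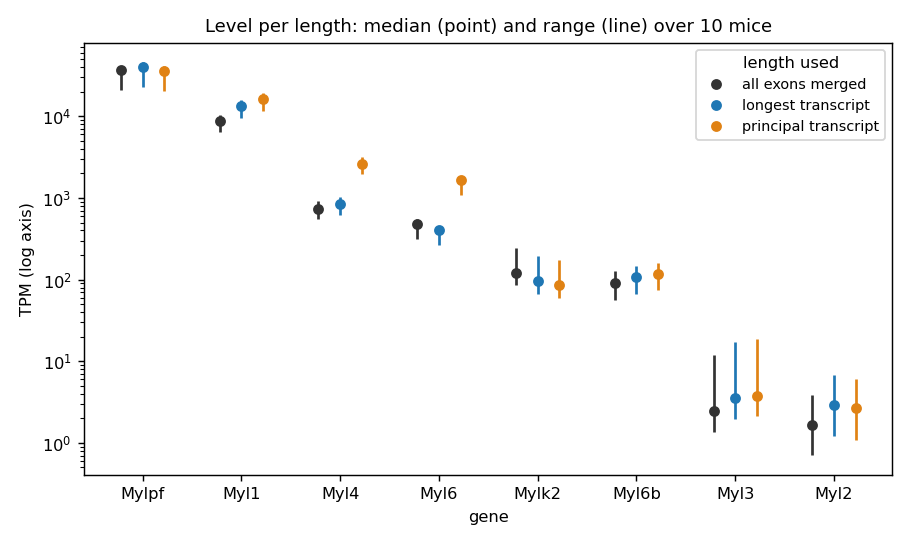
TPM (log axis) of the 8 genes, with points for the median and lines for the range over 10 mice, by the transcript length used. The fast chains Mylpf and Myl1 lie at the top and the slow chains Myl3 and Myl2 at the bottom under each length, and Myl4 and Myl6 rise most with the length of the principal transcript.

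The essential chains Myl1, Myl3 and Myl4 were summed as TPM over merged exons, without Myl6 and Myl6b. Embryonic Myl4 made up 8.49% ± 2.29 of this sum in Pax7Cre and 7.65% ± 0.567 in miR-501KO mice (SD, n = 5 each). It was 5.04% in Pax7Cre mouse 2 and 11.1% in Pax7Cre mouse 4. With the length of the principal transcript, 943 bases in place of 4637 for Myl4, the share was 14.96% ± 3.80 and 13.6% ± 0.944. Slow Myl3 made up 0.0392% ± 0.0385 and 0.0525% ± 0.0437 of the same sum. Pax7Cre mouse 2 weighs most in the Pax7Cre mean, with Myl3 at 11.1 CPM against 0.963 to 2.96 CPM in the other Pax7Cre mice. The highest share of Myl3 was 0.122%, in miR-501KO mouse 4. Slow Myl2 made up 0.00518% ± 0.00304 in Pax7Cre and 0.00503% ± 0.000851 in miR-501KO mice of the regulatory chains Mylpf and Myl2. With the principal transcripts' lengths the share of Myl2 was 0.00819% ± 0.00480 and 0.00796% ± 0.00135.

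Within each muscle, 5 isoform ratios were compared between genotypes on the log2 scale of counts plus 0.5, with an exact two-sided permutation test whose smallest possible p for 5 against 5 mice is 0.00794. The slow-to-fast essential ratio, Myl3 over Myl1, was -11.62 ± 1.13 in Pax7Cre and -11.17 ± 1.15 in miR-501KO mice (SD, n = 5 each, exact permutation p = 0.548). It was highest in miR-501KO mouse 4 (-9.60) and Pax7Cre mouse 2 (-9.82), so Myl3 was high there relative to Myl1 as well. The difference of 0.45 was 0.90 without Pax7Cre mouse 2 and 0.05 without miR-501KO mouse 4. The slow-to-fast regulatory ratio, Myl2 over Mylpf, was -13.54 ± 0.88 and -13.39 ± 0.24 (exact permutation p = 0.738). Its difference of 0.14 was 0.06 with 5 counts added in place of 0.5.

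The embryonic-to-fast ratio, Myl4 over Myl1, was -2.18, -3.07, -2.07, -1.84 and -2.43 in Pax7Cre mice 1 to 5 and -2.28, -2.42, -2.45, -2.60 and -2.42 in miR-501KO mice 1 to 5. Pax7Cre mice held both the lowest value, in mouse 2, and the highest, in mouse 4, and the difference between genotypes was -0.12 (exact permutation p = 0.643). Myl6b over Myl6 differed by -0.03 (exact permutation p = 0.833). Mylk2 over Mylpf, the kinase relative to the fast chain it phosphorylates, differed by 0.08 (exact permutation p = 0.794) and was highest in Pax7Cre mouse 2 (-5.94) and miR-501KO mouse 4 (-6.15). Adjusted over the 5 ratios, the p of each was 0.833.

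**Figure D5:**
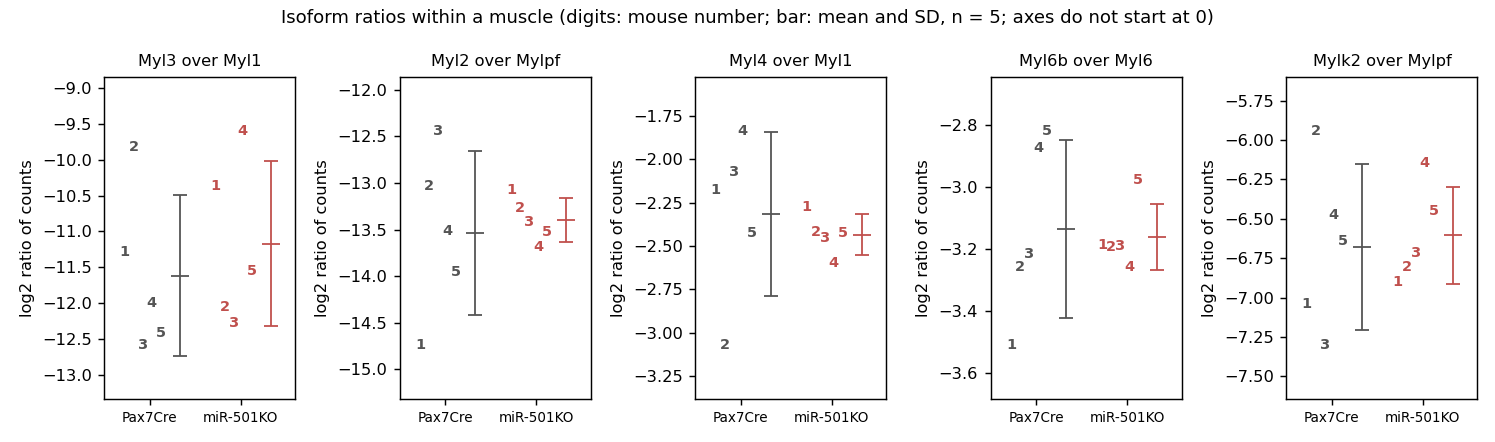
Log2 ratio of counts (y axes, which do not start at 0) of 5 pairs of light chain genes in each mouse, with digits for the mouse number and bars for the mean and SD of 5 mice. The genotypes overlap in each ratio, and Pax7Cre mouse 2 and miR-501KO mouse 4 are the highest of their genotypes for Myl3 over Myl1 and for Mylk2 over Mylpf.

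Of 7 relations across the 10 mice, computed on log2 CPM with 100000 permutations, that of the fast pair held after adjustment by Pearson's r. Myl1 and Mylpf correlated with r = 0.97 (permutation p = 0.00018, adjusted p = 0.00126) and a Spearman coefficient of 0.79 (p = 0.00846, adjusted p = 0.0592, permutation), and r was 0.67 without Pax7Cre mice 2 and 4. Both are levels from the same libraries. Mylpf and Mylk2 had r = 0.73 (permutation p = 0.0306, adjusted p = 0.107), which fell to 0.13 without the same 2 mice and so rests on them.

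The slow pair Myl2 and Myl3 had r = 0.28 (permutation p = 0.437), which was 0.70 without Pax7Cre mice 1 and 3, the farthest from the median of Myl2, and 0.03 without Pax7Cre mouse 2. Myl1 and Myl4, the fast and the embryonic essential chain, had r = 0.25 (permutation p = 0.467). Myl6 and its neighbour Myl6b had r = 0.27 (permutation p = 0.457), and Myl4 and Myh3 had r = 0.07 (permutation p = 0.842). None of these 4 passed adjustment. With 5 mice per genotype, no correlation was computed within one.

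The genes most like each light chain gene across the 10 mice, by Pearson's r of log2 CPM over all genes tested, are given as a description. For Mylpf these were Tnni2, the fast troponin I (r = 0.98), Smpx (0.98) and Atp5k, a subunit of ATP synthase (0.98). For Myl1 they were Yipf7 (0.99), Sh3bgr (0.99) and Ndufa9, a subunit of mitochondrial complex I (0.98). For Mylk2 they were Tcea3 (0.99), Abcb4 (0.99) and Retreg1 (0.98), and r stayed at 0.96 or above without the 2 mice farthest from the median. Without the 2 farthest mice r fell to between 0.86 and 0.89 for the genes of Mylpf and between 0.82 and 0.93 for those of Myl1.

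For Myl3 the nearest genes were Pon2 (r = 0.98), Hdgf (0.97) and Aldh1a1 (0.96), none of them a slow sarcomeric gene. For Myl2, with few reads, they were Kdm6a (0.97), Sfrp4 (0.95) and Gm14443 (0.95). For Myl4 they were Gdi2 (0.97), Selenof (0.96) and Pop4 (0.95), and for Myl6 they included Ppia (0.97) and Gmpr2 (0.97). For Myl6b they were Ccbe1 (0.96), Atp13a3 (0.95) and the embryonic heavy chain Myh3 (0.95), for which Myl4 had r = 0.07.

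Of 5 other light chain genes, Myl9, Myl12a and Myl12b passed the filter, 2 higher and 1 lower, and Myl7, the atrial regulatory chain, and Myl10 did not. The smallest p was that of Myl12a, a non-muscle regulatory chain, with a log2 fold change of 0.13 (SE 0.09, edgeR unadjusted p = 0.160, adjusted p = 1.00). Of 14 genes that act on light chain phosphorylation (kinases, calmodulins and myosin phosphatase subunits), 4 were higher and 10 lower, none at an unadjusted p under 0.05. The smallest p was that of Mylk3, the cardiac light chain kinase, counted at 4 to 20 reads in a mouse, whose log2 fold change was -0.60 (SE 0.38, edgeR unadjusted p = 0.144, adjusted p = 1.00).

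Mylk4, a further light chain kinase gene chosen after its values were seen, shared the pattern of Mylk2. It was at 62.4, 287, 33.2, 32.8 and 73.0 CPM in Pax7Cre mice 1 to 5 and at 66.7, 57.9, 41.6, 239 and 75.4 CPM in miR-501KO mice 1 to 5. The same 2 mice stood above the others, and the log2 fold change was -0.02 (SE 0.61, edgeR adjusted p = 1.00).

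Of 16 genes of the heavy chains and myosin-binding proteins to which light chains are joined in the thick filament, 11 were higher and 5 lower, with a median log2 fold change of 0.04. Mybph, which encodes myosin-binding protein H, was the 1 of these 16 with an unadjusted p under 0.05, a threshold passed by 1.05% of all genes tested. It was at 143, 132, 163, 182 and 169 CPM in Pax7Cre mice 1 to 5 and at 197, 207, 154, 197 and 184 CPM in miR-501KO mice 1 to 5, with overlap in miR-501KO mouse 3. Its log2 fold change was 0.25 (SE 0.11, unadjusted p = 0.0363, edgeR adjusted p = 1.00). The fast heavy chain Myh4 was at 5143 ± 2371 CPM in Pax7Cre and 5010 ± 994 CPM in miR-501KO mice (SD, n = 5 each).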

How the data were processed

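TA muscle of 5 Pax7Cre and 5 miR-501KO mice was sequenced with a stranded mRNA kit as single-end reads of 100 bases. The authors deposited raw counts of reads per gene for each mouse, without normalization. Per the submitters' processing notes they used STAR, featureCounts, R 3.5.1 and the genome GRCm38.p5. Tool versions other than R, the strand setting and the treatment of reads on more than 1 gene are not given in the sources used here.

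Ensembl identifiers were paired with GENCODE M21 (25664 of 25700). TMM factors came from edgeR 4.0.16 in R 4.3.3. Its filterByExpr (minimum count 10, minimum total 15) kept 14410 genes, and the quasi-likelihood test compared genotypes with Benjamini-Hochberg adjustment; log2 CPM used a prior count of 2. The test was checked on simulated data. Ratios, correlations and TPM were computed in Python 3.11.15 with scipy 1.17.1. The genes and gene lists, among them the fast, embryonic and other cell type markers, were chosen with earlier results of these data known. Named by rule were the 8 genes, the 3 genes most like each (1 of them is not reported here), the gene of smallest p or any with an unadjusted p under 0.05 in the 3 related lists, and Myh3, Myh4 and Myh7; Mylk4, Pth1r and Ccdc63 were named afterwards. The labels number the mice and name no batch; p-values and the intervals of fold changes measure the spread between these mice, and the binomial intervals of Myl2 and Myl3 cover counting error only. Mice of a genotype differed beyond counting noise (chi-square per degree of freedom at least 9.47). DESeq2 1.42.0, other scalings, filters and tests, a replicate block and leaving out each mouse were alternatives; the length of the principal transcript was added after seeing the data.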

Additional observations from a re-analysis of the deposited data

Results flagged for a closer look

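In 26 groups of 5 mice (8 genes by CPM and 5 ratios, in 2 genotypes), 4 held a mouse whose gap to its nearest neighbour exceeded Dixon's 95% critical value of 0.71 of the range. Chance gives about 1 in 20 groups, or 1.3 of 26. Mylk2 held 2 of them: Pax7Cre mouse 2 was at 334 CPM where the other 4 lay between 76.7 and 136, and miR-501KO mouse 4 was at 232 CPM where the others lay between 123 and 146. Myl3 was at 11.1 CPM in Pax7Cre mouse 2, with the other 4 between 0.963 and 2.96. On log2 CPM, a scale tried after seeing the data, the gap of Pax7Cre mouse 2 was 0.609 of the range for Mylk2 and 0.541 for Myl3, below the critical value, and that of miR-501KO mouse 4 for Mylk2 was 0.731, so 2 of the 26 groups remained. In the same 2 mice the summed fast fiber genes were the highest of their genotypes, at 64954 and 49637 CPM, and the part of fiber content in the levels of Mylk2 and Myl3 was not tested. The log2 ratio of Myl6b over Myl6 was -2.98 in miR-501KO mouse 5 and between -3.26 and -3.19 in the other miR-501KO mice.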

How the results depend on the processing

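With edgeR's likelihood ratio test, run on the trended spread alone, 11 genes were called higher and 8 lower, against 0 with the quasi-likelihood test. In it 123 were higher at an unadjusted p under 0.05. The 55 higher and 96 lower genes at that threshold became 153 and 159 without the filter and 36 higher with at least 10 counts in every mouse. Leaving out each mouse gave 39 to 267 higher and 59 to 242 lower, with the highest counts without Pax7Cre mouse 2 (267 and 186) and Pax7Cre mouse 4 (228 and 242), and the cause was not tested. Equal mouse numbers were not taken as pairs: the correlation of deviations between equal numbers ran from -0.30 to 0.34, although Pax7Cre mice 1, 3 and 5 each correlated best with the miR-501KO mouse of their number. With the replicate block 87 genes were higher, and the log2 fold changes of Myl2 and Myl6b turned to 0.14 and 0.011. Those of Myl3, Mylk2, Mylpf and Myl1 became 0.52, 0.20, 0.11 and 0.06, and no call changed.

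No fold change of the 8 genes reached an adjusted p under 0.05 in 144 refits, and none of 60 refits of the ratios a p under 0.05. Among the 60 were the ratio refits with the replicate block, sign permutations over mice of equal number. Their smallest possible p is 0.0625, so they could not fall under 0.05 whatever the values. Leaving out 1 mouse turned the sign in 24 of 80 refits. The log2 fold change then ran from -0.14 to 0.17 for Myl1, -0.26 to 0.37 for Myl2, -0.40 to 1.36 for Myl3, -0.13 to 0.0090 for Myl4, -0.027 to 0.11 for Myl6, -0.082 to 0.065 for Myl6b, -0.14 to 0.19 for Mylpf and -0.15 to 0.53 for Mylk2. The ratio differences ran from 0.054 to 0.90 for Myl3 over Myl1, -0.16 to 0.42 for Myl2 over Mylpf, -0.31 to 0.0026 for Myl4 over Myl1, -0.12 to 0.054 for Myl6b over Myl6 and -0.078 to 0.26 for Mylk2 over Mylpf. Pearson's r ran from 0.034 to 0.57 for Myl2 with Myl3, -0.28 to 0.55 for Myl1 with Myl4, -0.24 to 0.46 for Myl6 with Myl6b and -0.28 to 0.28 for Myl4 with Myh3. With the longest transcript's length the median was 13484 TPM for Myl1 and 2.93 for Myl2, and with the principal transcript's length it was 2601 TPM for Myl4, 1643 for Myl6, 16332 for Myl1, 3.79 for Myl3 and 2.65 for Myl2, each over 1.5 times its value over merged exons. Myl2 and Myl3, with 12 to 210 reads per mouse, carry counting error beside the differences between mice.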
